A study of Mus musculus with 6 samples.

Results

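Attachment of ubiquitin to a protein runs through a cascade in which an E1 enzyme activates ubiquitin, an E2 enzyme carries it and an E3 ligase chooses the protein that receives it, while deubiquitinases take ubiquitin off again. E3 ligases differ in build: RING, RBR, TRIM and HECT proteins contain the catalytic or E2-binding domain themselves, whereas F-box, Kelch-BTB, KCTD and SOCS-box proteins mostly serve as the substrate receptors of cullin complexes. In the liver these enzymes set the lifetime of metabolic enzymes, of inflammatory signaling proteins and of the stress sensors that respond to oxidants. Here 41 protein-coding genes of these families were followed in livers after ischemia-reperfusion (I/R), out of 3201 genes listed with a value in every liver. They were taken by gene symbol alone, by the starts Usp, Otu, Uch, Ube2, Ube3, Fbx, Trim, Rnf, Klhl, Asb, Cul, March, Herc, Nedd4, Kctd, Peli and Siah, leaving out Usp2, Usp29 and Usp18, and the rule itself uses no level or fold change, although the genes it chose from had all passed the authors' limits in these livers. The symbol pattern matched 43 listed protein-coding genes, of which Usp2 and Usp29 were set aside, and 3 listed pseudogenes of the same families were not counted.

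RNA-seq was performed on whole livers of male C57BL/6 mice, 3 in a group, after partial warm ischemia for 1 h and reperfusion for 6 h, which all 6 animals underwent. The label of the control livers (IR) gives the treatment in place of a genotype. According to the study's results text and figure legend these mice were Fgf18 f/f, with a floxed Fgf18 gene and no deletion. The other livers (18KO), labelled as an FGF18 knockout, came from Fgf18 △HSC mice, in which Cre driven by the GFAP promoter removes Fgf18 in hepatic stellate cells (HSCs), and GFAP is also a gene of glia. The comparison asks how loss of this growth factor from HSCs alters the injured liver. Values of Fgf18, Usp16 and Keap1 and livers without I/R were not analysed here, and the age of the animals is not given in the sources used here.

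Every one of the 3201 genes had already passed the authors' own limits on fold change and unadjusted p in these same 6 livers, so a gene that passed the test below is no independent evidence of a difference, and the p-values measure only the spread between these livers. The values were taken as TPM, read counts per length of transcript scaled to a common total in each library, because multiplied by exon length they gave whole reads for 92.2 to 93.1% of the values under 5000 reads in each liver. A read on 1 kb of exon was worth 0.0374 to 0.0555 TPM in the IR livers and 0.0482 to 0.0655 TPM in the 18KO livers, so a member well under 1 TPM rested on few reads. The listed genes together took up 7.14 to 7.93% of all TPM in the IR livers and 3.89 to 3.99% in the 18KO livers. Levels were compared with limma on log2(TPM + 0.1), which understates the change of low genes, and a gene was called at an adjusted p under 0.05 (Benjamini-Hochberg, all 3201 genes) with an absolute log2 fold change above 1.

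Of the 41 members, 32 had the higher mean in 18KO livers and 9 the higher mean in IR livers. The call was reached by 21 members that rose (51.2%) and 6 that fell (14.6%) in 18KO livers, and the other 14 passed the adjusted p but not the fold limit. Among the 2441 protein-coding listed genes, 40.4% were called higher and 29.1% lower (41.6% and 30.0% of all 3201). The share of risen members lay above this background and the share of fallen members below it. These shares do not allow for level: 26 of the 41 members averaged up to 1 TPM, against 1313 of the 2441 genes. Up to 1 TPM, 53.8% of members and 43.3% of those genes were called higher. Above 1 to 10 TPM the shares were 58.3% and 49.9%, and above 10 TPM 0 of 3 members and 12.9%. Called lower in these ranges were 1 of 26, 3 of 12 and 2 of 3 members, against 7.24%, 39.8% and 81.8% of genes. The difference between these shares was not tested. The median log2 fold change of the members was 1.01, beside 0.87 over all protein-coding listed genes, and 78.0% of the members against 66.1% of those genes had the higher mean in 18KO livers. In 40 of the 41 members the 2 groups of livers did not overlap, which was also true of 96.7% of the protein-coding listed genes. Ube2t was the member whose groups overlapped.

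The families were represented unevenly. The annotation holds 448 protein-coding genes that fit the symbol rule, and 41 of them (9.15%) were listed, against 2441 of 22028 (11.1%) of all protein-coding genes. TRIM genes were listed in 12 of 68 cases (17.6%), RING and RBR genes in 11 of 103, F-box genes in 5 of 77 (6.49%), Kelch-BTB genes in 5 of 36, KCTD genes in 3 of 22, SOCS-box genes in 3 of 18, HECT-type genes in 1 of 10 and E2 genes in 1 of 37. None of 8 cullins and none of 69 deubiquitinases that fit the rule was among the genes listed, and their levels were not analysed here. The members therefore describe ligases and substrate receptors, with 1 conjugating enzyme.

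**Figure D1:**
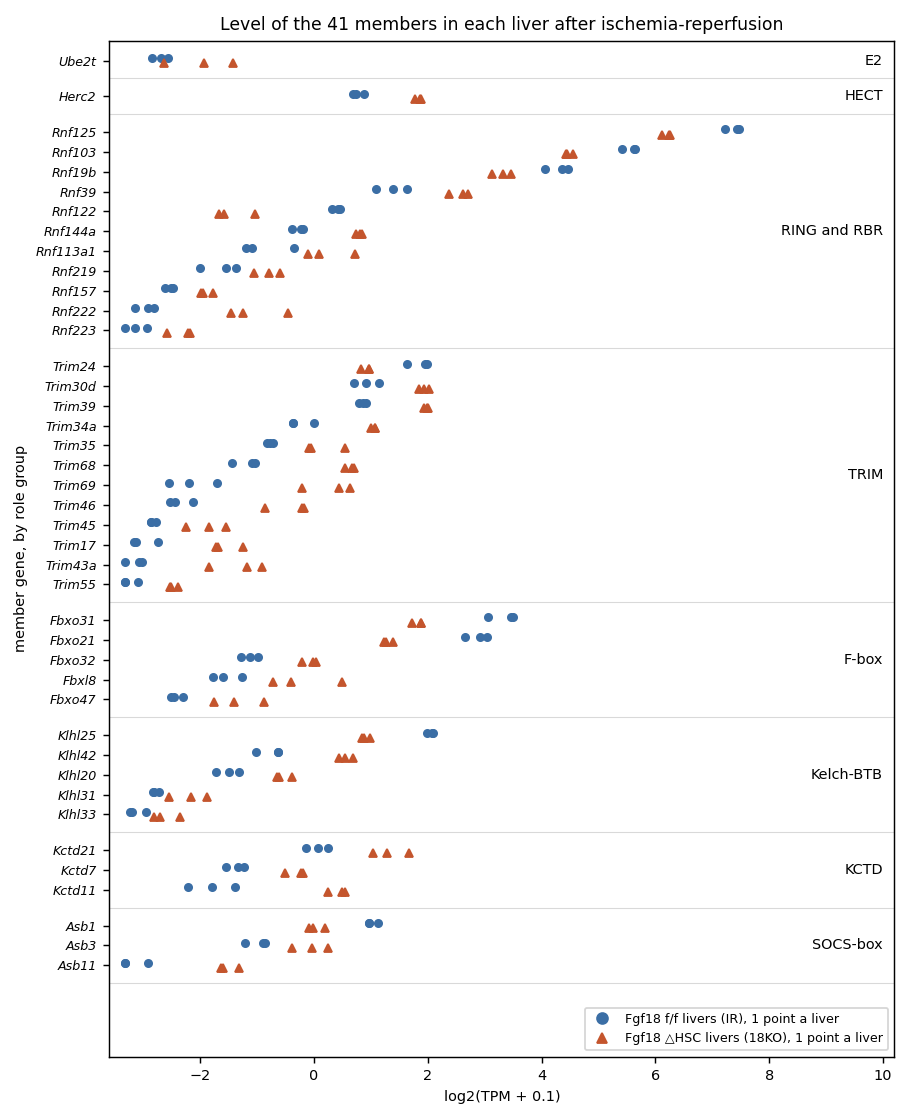
Level of each of the 41 members in every liver on a log2(TPM + 0.1) scale, with genes in rows grouped by role, circles for the 3 IR livers and triangles for the 3 18KO livers. The highest members (Rnf125, Rnf103, Rnf19b, Fbxo31, Fbxo21) had their circles to the right of the triangles, whereas most genes near the left edge had their triangles to the right, and circles and triangles overlapped for Ube2t alone.

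Direction went with level. The 9 lower members had a median of 7.27 TPM in IR livers, and the 32 higher members a median of 0.237 TPM. The level in IR livers is a part of the fold change on which genes were listed. A gene near 0 there could hardly be listed except as higher, so this contrast is a description only. Of 26 members with a mean up to 1 TPM over the 6 livers, 25 were higher in 18KO livers; of 12 between 1 and 10 TPM, 7 were higher; and the 3 members above 10 TPM were all lower. The same gradient ran through the protein-coding listed genes, of which 89.0%, 53.9% and 12.9% were higher in these 3 level ranges, so it is not particular to the ubiquitin families. Summed over the 9 lower members, the level was 278, 274 and 234 TPM in the IR livers and 118, 112 and 119 TPM in the 18KO livers. The 32 higher members summed to 14.8, 13.8 and 14.7 TPM in the IR livers and 37.9, 37.3 and 37.9 TPM in the 18KO livers. In TPM, therefore, the members together went from 276 ± 24.0 (SD, n = 3) in IR livers to 154 ± 4.45 in 18KO livers, although most of the genes moved the other way. All listed genes together fell too, from 7.14 to 7.93% of all TPM in IR livers to 3.89 to 3.99% in 18KO livers. The fall of the sum is thus not particular to the members. Rnf125 alone made up 60.3% of the summed level in IR livers and 47.8% in 18KO livers, and without it the lower members still went from 95.2 ± 9.16 to 42.6 ± 0.853 TPM. These sums follow from directions seen in the same livers and are given as description, with no test.

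**Figure D2:**
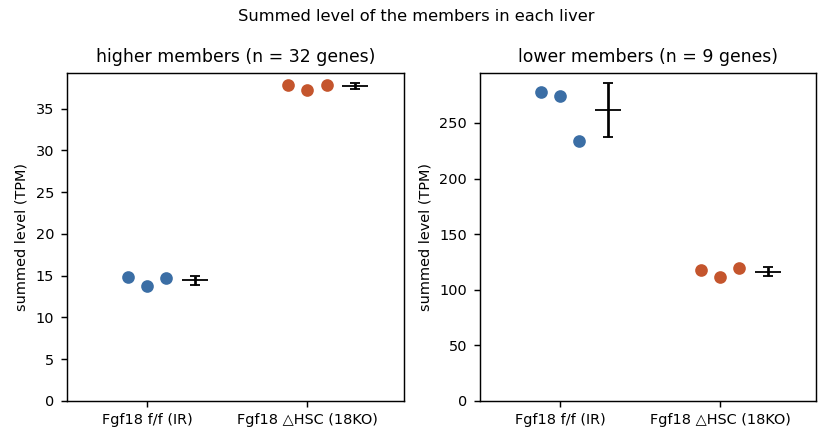
Summed level in TPM of the 32 higher members (left) and the 9 lower members (right) in each liver, 1 point a liver, with a bar for the mean and SD of the 3 livers of a group, on axes that start at 0. The higher members sat between 13.8 and 14.8 TPM in IR livers and between 37.3 and 37.9 TPM in 18KO livers, and the lower members between 234 and 278 TPM and between 112 and 119 TPM.

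**Figure D3:**
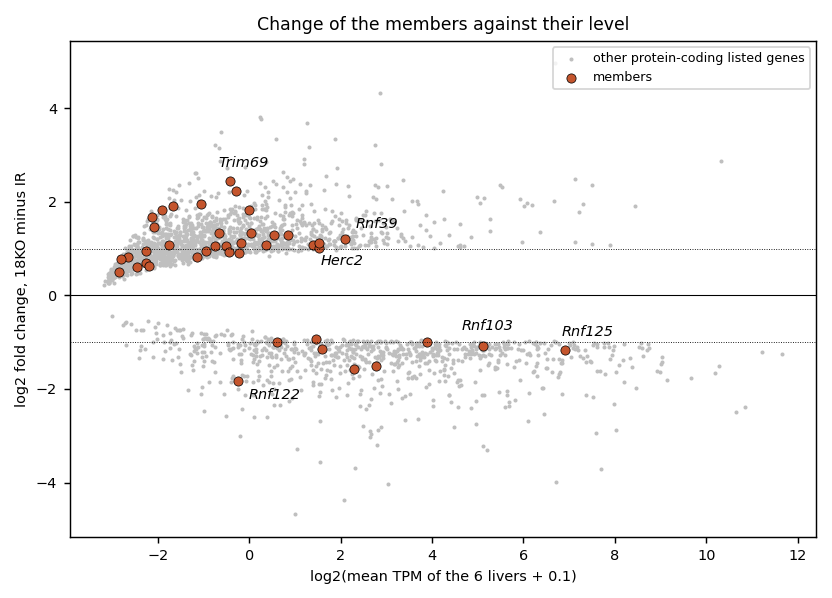
Log2 fold change of the members (large points) and of the other protein-coding listed genes (small points), 18KO minus IR on the log2(TPM + 0.1) scale, against the mean level of the 6 livers, with dotted lines at the fold limit of 1. The gap around 0 is the authors' filter on fold change, its curve at the left comes from adding 0.1 TPM, and the members lay within the cloud of the other genes.

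The only E2 enzyme was Ube2t (chr1:134962565-134974162, GRCm38), which carries ubiquitin in the Fanconi anemia pathway of DNA crosslink repair. Its level was 0.0386, 0.0557 and 0.0689 TPM in the IR livers and 0.0598, 0.162 and 0.272 TPM in the 18KO livers. The lowest 18KO liver lay within the IR range. With a log2 fold change of 0.70 (SE 0.30, limma adjusted p = 0.0489) and 5 to 6 reads in each IR liver, Ube2t passed the adjusted p narrowly and missed the fold limit. Without 18KO replicate 1 it passed both (1.02, limma adjusted p = 0.00528), and without any other liver it passed neither (limma adjusted p from 0.0768 to 0.141). The adjusted p was also 0.0602 and 0.0566 with 1 and 0.01 TPM added, 0.0524 with no trend, 0.0551 in limma-voom and 0.485 after rescaling. Mki67, the only gene listed of 14 markers of proliferating cells, went from 0.797 ± 0.0960 to 0.284 ± 0.0512 TPM.

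Herc2 (chr7:56050196-56231800), a giant HECT-type ligase of the DNA damage response, rose. It measured 1.57, 1.73 and 1.51 TPM in the IR livers and 3.54, 3.58 and 3.33 TPM in the 18KO livers. The groups lay far apart relative to their spread, with a log2 fold change of 1.07 (SE 0.14, limma adjusted p = 0.000214). After rescaling of the livers the change was 0.08 (limma adjusted p = 0.744). At 440 reads or more in every liver, Herc2 was among the best covered of the higher members.

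RING and RBR ligases were the group with the largest levels. Of the 11, 4 rose (36.4%), 3 fell (27.3%) and 4 passed the adjusted p alone, with a median log2 fold change of 0.81. These shares lay near those of the protein-coding listed genes, 40.4% called higher and 29.1% lower, and are not particular to the group. Rnf125 (chr18:20944625-20983862), a ligase that marks the viral RNA sensor RIG-I and its adaptor for degradation, was the most abundant member. Its level was 178, 173 and 149 TPM in the IR livers and 76.3, 68.9 and 75.8 TPM in the 18KO livers. Each 18KO liver was below every IR liver, and the log2 fold change was −1.17 (SE 0.11, limma adjusted p = 6.15e-05). Rnf103 (chr6:71493894-71510881), a ligase anchored in the membrane of the endoplasmic reticulum, fell as well. The IR livers held 49.3, 50.1 and 42.7 TPM and the 18KO livers 21.4, 23.3 and 21.7 TPM, a log2 fold change of −1.09 (SE 0.11, limma adjusted p = 7.51e-05). Rnf122 (chr8:31111820-31131482), a small membrane-bound RING protein, had the largest fall of all members with 0.1 TPM added, though not with 1 TPM added (−0.80). From 1.24, 1.27 and 1.15 TPM in the IR livers it went to 0.214, 0.232 and 0.387 TPM in the 18KO livers, a log2 fold change of −1.83 (SE 0.23, limma adjusted p = 0.000185). The RBR ligase Rnf19b, known from natural killer cells and macrophages, had means of 19.7 ± 2.79 and 9.84 ± 1.13 TPM, and its log2 fold change of −0.99 lay just inside the fold limit. IR replicate 3 was the lowest IR liver for Rnf125, Rnf103 and Rnf19b, and so it was for 6 of the 9 lower members.

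Among the RING and RBR genes that rose, Rnf39 (chr17:36942918-36947986), a gene of the major histocompatibility complex region, had the highest level. Its values were 3.0, 2.03 and 2.51 TPM in the IR livers against 6.07, 5.10 and 6.42 TPM in the 18KO livers, a log2 fold change of 1.20 (SE 0.18, limma adjusted p = 0.000415). After rescaling the change of Rnf39 was 0.20 (limma adjusted p = 0.418). No other higher member reached a larger mean in 18KO livers than the 5.86 TPM of Rnf39. Rnf144a (chr12:26300964-26415254), an RBR ligase, had close replicates, with 0.748, 0.770 and 0.666 TPM in the IR livers and 1.69, 1.64 and 1.58 TPM in the 18KO livers. Its log2 fold change was 1.07 (SE 0.16, limma adjusted p = 0.000481), and 0.13 after rescaling (limma adjusted p = 0.638). Rnf113a1 (chrX:37191245-37192467), a spliceosome-associated RING protein, was less even: 0.336, 0.367 and 0.681 TPM in the IR livers and 1.54, 0.963 and 0.827 TPM in the 18KO livers. The highest IR liver came close to the lowest 18KO liver, and the log2 fold change of 1.11 (SE 0.31, limma adjusted p = 0.00834) dropped to 0.96 without IR replicate 1 and 0.87 without 18KO replicate 1, and so out of the call. After rescaling the change of Rnf113a1 was 0.23 (limma adjusted p = 0.553). Reads of Rnf113a1 could also be shared with its near-copy Rnf113a2, which makes its value uncertain. Rnf222 rose from 0.0294 ± 0.0153 to 0.403 ± 0.195 TPM, on 1 to 4 reads in each IR liver. Rnf157 (0.0728 ± 0.00903 and 0.167 ± 0.0210 TPM) and Rnf219, a ligase of replication origins (0.226 ± 0.0695 and 0.473 ± 0.0874 TPM), were not called. Rnf223 (chr4:156130513-156133420) had 3 reads in the 3 IR livers together and 17 in the 18KO livers, with levels of 0.0128, 0.0309 and 0 TPM against 0.116, 0.0675 and 0.122 TPM. Allowing for depth this is a ratio of 6.81, with an exact 95% interval from 1.97 to 36.3 that covers counting error only. A gene with so few IR reads could hardly pass the authors' limits except by being higher in 18KO livers. The interval is therefore no evidence of a difference.

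TRIM ligases, which join a RING domain to a B-box and a coiled coil and are known above all from antiviral and innate immune signaling, were the largest group. Of the 12, 8 rose (66.7%) and none fell past the call, with a median log2 fold change of 1.20, where 40.4% of the protein-coding listed genes were called higher and 29.1% lower. Most of them averaged under 1 TPM, a range in which 89.0% of the protein-coding listed genes were higher. Trim69 (chr2:122160700-122179027), a ligase of centrosomes and microtubules, had the largest rise of all members on the log2(TPM + 0.1) scale. The 3 IR livers held 0.119, 0.0713 and 0.206 TPM and the 18KO livers 1.25, 0.763 and 1.45 TPM, a log2 fold change of 2.43 (SE 0.31, limma adjusted p = 0.000201). Trim68 (chr7:102677582-102687327), known as a coactivator of the androgen receptor, showed the same direction with tighter replicates. It went from 0.269, 0.387 and 0.367 TPM to 1.48, 1.52 and 1.37 TPM, with a log2 fold change of 1.83 (SE 0.19, limma adjusted p = 9.17e-05). Trim68 missed the fold limit with 1 TPM added (0.87) and after rescaling (0.96, limma adjusted p = 0.00497). Trim39 (chr17:36258873-36272247), another gene of the major histocompatibility complex region, had, with Trim30d, the highest mean level of the TRIM genes. Its IR livers measured 1.71, 1.63 and 1.78 TPM and its 18KO livers 3.89, 3.88 and 3.70 TPM, a log2 fold change of 1.12 (SE 0.13, limma adjusted p = 0.000142). Trim39 had 232 reads or more in every liver, and it lost the call with 1 TPM added (0.83) and after rescaling (0.12, limma adjusted p = 0.581).

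Trim34a (chr7:104244457-104262234) and Trim30d (chr7:104470014-104507849) belong to a cluster of interferon-inducible TRIM genes and lie 208 kb apart. Trim34a was at 0.677, 0.675 and 0.90 TPM in the IR livers and at 1.90, 1.99 and 1.99 TPM in the 18KO livers, a log2 fold change of 1.29 (SE 0.17, limma adjusted p = 0.000294). After rescaling the change of Trim34a was 0.34 (limma adjusted p = 0.175). Trim30d had 2.1, 1.79 and 1.54 TPM in the IR livers and 3.48, 3.71 and 3.97 TPM in the 18KO livers, and at a log2 fold change of 1.01 (SE 0.16, limma adjusted p = 0.000596) it was the called member nearest the fold limit. Both genes have near-copies in the cluster, and how reads were shared between them is not known, so their separate values are uncertain. Of 25 interferon-induced genes chosen as a comparison, 2 were listed, and they moved opposite ways: Oas3 was at 0.303 ± 0.101 and 0.672 ± 0.309 TPM without reaching the call, and Irf7, a transcription factor of the interferon response, fell from 17.8 ± 1.46 to 7.32 ± 1.29 TPM. The 2 promoters are shown because these were the only members whose promoter held the core of the interferon-stimulated response element (letters GAAANNGAA, on either strand). Each is the 300 bases around the start of the gene (RefSeq, GRCm38.p6), 5′ to 3′ on the strand of the gene, and capitals mark the match, which in both is on the other strand. In Trim30d (chr7:104507800-104508099, minus strand) the match begins 40 bases before the start, and in Trim34a (chr7:104244207-104244506, plus strand) 11 bases after it.
Trim30d: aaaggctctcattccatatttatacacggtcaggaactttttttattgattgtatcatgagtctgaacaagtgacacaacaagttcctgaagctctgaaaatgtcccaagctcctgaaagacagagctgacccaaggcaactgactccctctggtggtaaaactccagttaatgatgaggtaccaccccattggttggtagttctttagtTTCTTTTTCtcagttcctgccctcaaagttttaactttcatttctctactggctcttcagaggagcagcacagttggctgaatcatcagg
Trim34a: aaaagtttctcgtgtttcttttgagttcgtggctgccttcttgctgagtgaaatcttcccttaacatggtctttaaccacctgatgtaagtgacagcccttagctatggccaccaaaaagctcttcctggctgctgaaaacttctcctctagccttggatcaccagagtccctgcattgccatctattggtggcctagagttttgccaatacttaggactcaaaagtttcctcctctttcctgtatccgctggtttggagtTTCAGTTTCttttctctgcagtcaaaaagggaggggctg
The same letters occurred in 8.56% of all 32851 promoters and in 9.76% of genes, and in 2 of the 31 members with a promoter in the table (6.45%), so their presence is a description and not a site.

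Most of the other TRIM genes were at low levels. Trim46, which bundles axonal microtubules, rose from 0.0947 ± 0.0293 to 0.667 ± 0.186 TPM, and Trim17 rose from 0.0256 ± 0.0212 to 0.245 ± 0.0671 TPM, although Trim17 overlaps the histone gene Hist3h2a on the same strand. Trim43a (chr9:88580891-88588819), a gene of the early embryo with near-copies Trim43b and Trim43c, had 2 reads in the IR livers together (0.0188, 0.0226 and 0 TPM) and 34 in the 18KO livers (0.340, 0.429 and 0.178 TPM). The ratio at equal depth was 20.4 (exact 95% interval 5.24 to 176). As for Rnf223, the selection of the listed genes makes this ratio and that of Trim55 a description only. Trim55 (chr3:19644474-19692421), a protein of the muscle sarcomere, had 1 read in the IR livers (0, 0.0169 and 0 TPM) and 12 in the 18KO livers (0.0906, 0.0738 and 0.0760 TPM). Its ratio of 14.4 had an exact 95% interval from 2.13 to 616, and its log2 fold change of 0.77 on the scale with 0.1 TPM added was not called. Trim35 (0.484 ± 0.0220 and 1.02 ± 0.293 TPM) and Trim45 (0.0403 ± 0.00513 and 0.175 ± 0.0653 TPM) were not called either. Trim24 (chr6:37870811-37966296), a bromodomain coregulator of nuclear receptors that restrains growth of hepatocytes, was the only TRIM gene with a lower mean in 18KO livers. It went from 3.02, 3.85 and 3.78 TPM to 1.68, 1.84 and 1.86 TPM, and its log2 fold change of −0.94 (SE 0.15, limma adjusted p = 0.000709) stayed within the fold limit, which it passed without IR replicate 1 (−1.05).

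F-box proteins are the substrate receptors of SCF ligases, built on the cullin CUL1. All 5 listed were called, 3 higher and 2 lower, in a list of which 40.4% of the protein-coding genes were called higher and 29.1% lower. Fbxo21 (chr5:117976730-118010201), whose substrates include a kinase of the antiviral stress response, fell. Its level was 7.47, 8.16 and 6.17 TPM in the IR livers and 2.30, 2.24 and 2.52 TPM in the 18KO livers, a log2 fold change of −1.58 (SE 0.15, limma adjusted p = 5.86e-05). Fbxo31 (chr8:121549440-121578806), a DNA damage-induced receptor for cyclin D1, fell from 11.2, 10.9 and 8.19 TPM to 3.58, 3.59 and 3.18 TPM. Its log2 fold change was −1.51 (SE 0.15, limma adjusted p = 8.04e-05). These falls came next to that of Rnf122, and each had 190 reads or more in every liver. Fbxo32 (atrogin-1), the ligase of muscle wasting, rose from 0.358 ± 0.0475 to 0.857 ± 0.0847 TPM, Fbxl8 rose from 0.247 ± 0.0638 to 0.819 ± 0.422 TPM, and the meiotic gene Fbxo47 rose from 0.0863 ± 0.0137 to 0.306 ± 0.127 TPM. After rescaling, the log2 fold changes of Fbxo32, Fbxl8 and Fbxo47 were 0.20, 0.51 and 0.48, under the fold limit. Leaving out 1 liver also took each under it. The values were 0.99 for Fbxo32 without IR replicate 3, 0.98 for Fbxl8 without 18KO replicate 3 and 0.84 for Fbxo47 without 18KO replicate 2. Of 16 muscle markers 4 were listed, with a summed level of 11.4 to 12.6 TPM in IR livers and 3.03 to 7.34 TPM in 18KO livers. Des and Ankrd1 were higher in 18KO livers, and Abra and Ankrd2 were lower. Their part in the values of Fbxo32, Trim55 and Klhl31 was not tested.

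The promoters of Fbxo21 and Fbxo31 are shown because these F-box genes fell most. Both also held a loose form of the antioxidant response element core (letters TGANNNNGC, on either strand), in which any base may stand at N. That element is bound by Nrf2, whose pathway this study is about. Capitals mark the match, again on the other strand of each, 8 bases after the start of Fbxo21 (chr5:117976520-117976819, plus strand) and 69 bases before that of Fbxo31 (chr8:121578757-121579056, minus strand).
Fbxo21: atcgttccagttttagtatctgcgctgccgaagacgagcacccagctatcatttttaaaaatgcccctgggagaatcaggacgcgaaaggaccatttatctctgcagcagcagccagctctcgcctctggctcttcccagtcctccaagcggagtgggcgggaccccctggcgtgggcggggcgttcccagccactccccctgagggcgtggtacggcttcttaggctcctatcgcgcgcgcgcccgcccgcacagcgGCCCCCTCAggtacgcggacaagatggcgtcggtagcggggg
Fbxo31: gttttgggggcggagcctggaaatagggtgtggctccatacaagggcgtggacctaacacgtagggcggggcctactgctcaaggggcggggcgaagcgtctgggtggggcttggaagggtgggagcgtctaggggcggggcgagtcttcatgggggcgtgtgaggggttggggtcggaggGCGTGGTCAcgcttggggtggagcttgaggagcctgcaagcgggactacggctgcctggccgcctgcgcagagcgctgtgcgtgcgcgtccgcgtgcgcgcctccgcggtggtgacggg
These short letters are common: 14 of the 31 members held them (45.2%), 11 higher and 3 lower, and so did 45.05% of all genes. A match is therefore a description, and binding by Nrf2 was not tested. The E-box CACGTG, which is bound by clock and MYC-type factors, was in the promoters of Klhl20, Trim39 and Trim46 (9.68% of the members against 8.09% of genes), and the heat shock unit TTCNNGAA in those of Rnf223, Trim24 and Trim30d (9.68% against 9.60%). The NF-kB core GGANTTTCC was in 0 of the 31, against 1.45% of genes. GC content had a median of 60.0% in the members' promoters and 58.7% in those of all protein-coding listed genes.

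Kelch-BTB proteins bring substrates to the cullin CUL3, as the oxidant sensor of the Nrf2 pathway does. Of the 5 listed, 1 rose, 1 fell and 3 passed the adjusted p alone. Among the protein-coding listed genes 40.4% were called higher and 29.1% lower. Klhl25 (chr7:75848310-75874131), a receptor for the fatty acid synthesis enzyme ACLY, fell. Its IR livers held 3.87, 4.17 and 4.09 TPM and its 18KO livers 1.69, 1.88 and 1.74 TPM, a log2 fold change of −1.15 (SE 0.13, limma adjusted p = 0.000134). Klhl42 (chr6:147091379-147112778), a receptor for the microtubule-severing protein katanin, rose from 0.394, 0.543 and 0.542 TPM to 1.36, 1.5 and 1.26 TPM. The log2 fold change was 1.32 (SE 0.19, limma adjusted p = 0.00042), and 0.41 after rescaling (limma adjusted p = 0.154). Klhl20, a receptor for death-associated protein kinase, had means of 0.253 ± 0.0485 and 0.583 ± 0.0692 TPM and a log2 fold change of 0.96. Klhl31 (0.0443 ± 0.00605 and 0.122 ± 0.0501 TPM) and Klhl33 (0.0144 ± 0.0123 and 0.0638 ± 0.0288 TPM) rested on 1 to 7 reads in each IR liver and were not called.

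All 3 KCTD proteins rose, with a median log2 fold change of 1.28, in a list of which 40.4% of the protein-coding genes were called higher. Kctd11 (chr11:69878261-69881406), which together with Kctd21 recruits CUL3 to restrain Hedgehog signaling, had the next largest log2(TPM + 0.1) change after Trim69. It measured 0.190, 0.114 and 0.282 TPM in the IR livers and 1.36, 1.08 and 1.30 TPM in the 18KO livers, a log2 fold change of 2.22 (SE 0.26, limma adjusted p = 0.00013). Kctd21 (chr7:97332327-97350213) had 0.945, 0.802 and 1.09 TPM in the IR livers and 2.34, 3.09 and 1.96 TPM in the 18KO livers. Its log2 fold change was 1.28 (SE 0.21, limma adjusted p = 0.000721), and its 18KO livers spread more widely than those of Kctd11 relative to the change. After rescaling the change of Kctd21 was 0.32 (limma adjusted p = 0.299). Kctd7, a gene of progressive myoclonic epilepsy, rose from 0.288 ± 0.0426 to 0.708 ± 0.0952 TPM. The change of Kctd7 was 0.22 after rescaling, and it missed the fold limit without IR replicate 3 (0.968) and without 18KO replicate 3 (0.997).

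SOCS-box proteins of the ASB family combine ankyrin repeats with a box that binds the cullin CUL5. Of the 3 listed, 1 rose and none fell past the call, beside 40.4% and 29.1% of the protein-coding listed genes. Asb11 (chrX:164436994-164459170) had 2 reads in the IR livers together (0, 0.0315 and 0 TPM) and 39 in the 18KO livers (0.220, 0.299 and 0.231 TPM). At equal depth this is a ratio of 23.4, with an exact 95% interval from 6.07 to 200, again only a description of a gene selected in these livers. Asb1 (chr1:91540544-91559589) had 1.85, 2.07 and 1.86 TPM in the IR livers and 0.884, 0.845 and 1.05 TPM in the 18KO livers. Its log2 fold change of −0.99 (SE 0.16, limma adjusted p = 0.000769) lay at the fold limit. It passed that limit, at −1.01, −1.01 and −1.07, without IR replicate 1, IR replicate 3 and 18KO replicate 3. Asb3, a ligase for TNF receptor 2, had means of 0.408 ± 0.0663 and 0.873 ± 0.215 TPM and was not called. It overlaps the listed gene Gpr75 on the same strand, and its reads cannot be told apart from those of Gpr75 where their exons coincide.

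How even the livers were also differed between the groups. In the 15 members with a mean above 1 TPM, the median SD of the log2 values was 0.189 in the IR livers and 0.0818 in the 18KO livers, and the SD was smaller in the 18KO livers for 12 of the 15. Across the 1128 protein-coding listed genes above 1 TPM the order was the opposite, 0.141 in IR and 0.197 in 18KO livers, with the larger SD in the 18KO livers for 728 of them. Below this level the members followed the other genes, with 0.184 in the IR and 0.296 in the 18KO livers. No test was made of this contrast, and the members share the same 6 livers. By position, 6 members lay on chromosome 11 and 6 on chromosome 7, of which 6 and 5 were higher in 18KO livers, and Rnf39 and Trim39 lay 671 kb apart on chromosome 17.

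Outside the symbol rule, 220 annotated genes of the ubiquitin system were set beside the members (other ligases, SOCS and inhibitor of apoptosis proteins, proteasome subunits, other deubiquitinases and SUMO proteases), and 23 were listed. Of these 6 rose (26.1%) and 9 fell (39.1%), beside 40.4% and 29.1% of the protein-coding listed genes, with a median log2 fold change of 0.39. They stood at higher levels than the members, with 14 of the 23 averaging 1 TPM or more against 15 of the 41 members. The largest falls with a mean of at least 1 TPM were those of Tnfaip3 (A20), the ubiquitin-editing brake of NF-kB signaling, and of the cytokine signaling inhibitors Socs1 and Socs2. Tnfaip3 went from 67.7, 72.0 and 61.7 TPM in the IR livers to 7.17, 4.75 and 8.74 TPM in the 18KO livers, a log2 fold change of −3.31 (SE 0.21, limma adjusted p = 1.61e-05). Socs1 fell from 14.2 ± 2.78 to 2.83 ± 0.642 TPM, and Socs2 from 17.1 ± 1.6 to 3.86 ± 1.04 TPM. With the same limit on level, the largest rises were those of Socs5 (0.427 ± 0.124 to 2.90 ± 0.498 TPM), of the Notch-associated ligase Dtx4 (0.680 ± 0.0550 to 2.58 ± 0.181 TPM) and of the deubiquitinase Josd2 (4.58 ± 0.114 to 10.5 ± 1.04 TPM). The contrast with the members was not tested.

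Listed markers of liver cell types also differed between the groups, having passed the same filter as the members. Of 11 hepatocyte markers, 3 were listed (Cyp2e1, Cyp3a11 and Pck1), all lower in 18KO livers, and they summed to 2830 to 3057 TPM in IR livers and 850 to 1147 TPM in 18KO livers. Of 13 HSC markers, 8 were listed and all were higher, at 2.76 to 4.20 and 9.80 to 14.1 TPM. Markers of sinusoidal endothelial cells (3 of 9 listed, 11.9 to 14.4 and 26.5 to 38.8 TPM), of macrophages (4 of 11, 13.3 to 15.0 and 37.7 to 58.4 TPM) and of erythroid cells (4 of 6, 70.9 to 116 and 396 to 539 TPM) were likewise higher in 18KO livers. Neutrophil markers (5 of 11) moved both ways, 4 of 5 cholangiocyte markers were listed and 3 of them higher, 2 of 12 T and NK cell markers were lower, and 1 of 7 B cell markers was higher. None of the listed markers was at 0 in all livers of a group, and defining markers that were not listed, such as Alb for hepatocytes, were not analysed here. In whole tissue, fewer cells of a type and less RNA per cell cannot be told apart, and the part of these markers in the members' values was not tested.

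The number of calls depended on how the values were scaled. With 1 TPM added in place of 0.1, 0 of the higher members passed the fold limit in limma, and 4 members were called lower. With 1 TPM added, 31 of the higher members had an unadjusted p under 0.05, and limma-voom on recovered reads called 31 higher. Neither count is support for the calls, since the authors had selected these genes on fold change and unadjusted p in the same livers. When the livers were rescaled so that the listed genes had a common median ratio, the log2 fold changes of the listed genes shifted by a median of −0.88. Then 7 members were called higher and 9 lower, in place of 21 and 6. On that scale Rnf125 had a log2 fold change of −2.21, whereas several higher members were near 0, with 0.08 for Herc2, 0.04 for Rnf219 and Asb3, 0.014 for Trim30d and 0.0048 for Trim35, so these were not higher relative to the other listed genes. Since listed genes were selected for a difference, neither scale gives the change per cell.

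**Figure D4:**
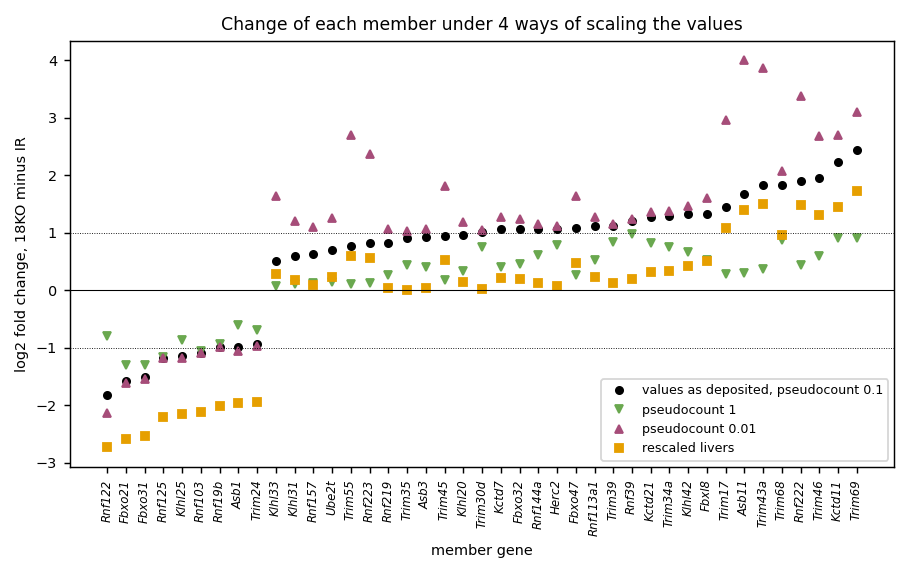
Log2 fold change of each member, 18KO minus IR, with 0.1, 1 or 0.01 TPM added and after rescaling the livers, with genes ordered by the values as deposited and dotted lines at the fold limit of 1. After rescaling several higher members lie near 0, the higher members with low levels move most with the added constant, and rescaling lowers every member.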

How the data were processed

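The authors isolated RNA from whole liver with Trizol, prepared stranded mRNA libraries, trimmed reads with cutadapt 2.5, aligned them to GRCm38 (mm10) with HISAT2 2.1.0, counted reads per gene with featureCounts 1.6.3 and compared groups with DESeq2. The strand setting of the counting is not given in the sources used here. The deposited table holds a value per gene and liver, in a unit it does not name, taken as TPM. It also holds the log2 fold change, p-value and adjusted p-value of the authors' DESeq2 comparison, which were not used beyond checking how genes had been selected. Of the 3201 genes, all passed the authors' fold change and unadjusted p limits, and 575 had an adjusted p of 0.05 or more by the authors.

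Groups came from the labels, 3 livers each. Gene positions, types and exon lengths came from the GENCODE annotation of GRCm38 (3196 genes matched). Reads recovered as TPM times joined exon length over the worth of 1 read were whole within 0.02 in all 6 livers for 2940 genes. limma 3.58.1 in R 4.3.3 (mean-variance trend) was fitted to log2(TPM + 0.1) of all 3201 genes, with no filter on low values and no block. Benjamini-Hochberg adjusted p under 0.05 with an absolute log2 fold change above 1 was a call. The fit was tried on simulated reads in which most genes were unchanged. The listed genes had all been selected for a difference, so that trial is no support for the calls. Members with at most 3 reads in every liver of a group are given as a ratio of summed reads at equal depth with an exact interval. Read totals of the libraries are not given, so depth was taken from the worth of 1 read, in these ratios and in limma-voom. Shares of all TPM rest on the common total to which TPM is scaled. The intervals cover counting error only, without the spread between animals, and take no account of the authors' selection of genes in the same livers. Promoters were matched to 31 of the 41 members by symbol, 1 through a RefSeq synonym. Python 3.11.15 was used for tables and figures.

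Values in each liver were given for the 3 largest changes in each direction per role group among members that averaged 1 TPM or more in an arm, for the highest member of each role group, for members with at most 3 reads in every liver of a group, and, outside this rule and chosen after its values were seen, for Trim30d. The members, role groups, marker lists, wider ubiquitin list and motifs were chosen with earlier results of these data known. The alternatives tried were adding 1 or 0.01 TPM, restricting the fit to genes averaging 1 TPM or more, rescaled livers, no trend, coding genes alone, other call rules, a replicate block, limma-voom on recovered reads and each liver left out in turn.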

Additional observations from a re-analysis of the deposited data

How the results depend on the processing

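Among the 16 alternatives, another pseudocount cannot turn a direction, and after rescaling several higher members lay near 0, so an unchanged sign is no sign of stability. The counts that moved by over 1.5 times were those of genes called higher and, with a pseudocount of 1, of all listed genes called lower. Those called higher were 21 members, 1333 listed genes and 6 genes of the wider ubiquitin list as reported. With a pseudocount of 1 they were 0, 266 and 3 (members at most at a log2 fold change of 0.97), and 566 listed genes were called lower in place of 961. Among genes averaging 1 TPM or more, where 15 members remain, they were 7, 522 and 3, fewer because fewer genes enter. With rescaled livers they were 7, 281 and 2. With no limit on the fold change they were 32, 2005 and 11. A pseudocount of 0.01 called 11 of the wider list higher and 31 members, and limma-voom on recovered reads 31 members higher and 6 lower, over 40 members since the reads of Rnf125 did not come out whole. The cause of the other moves was not tested.

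Leaving out each liver in turn gave 18 to 23 members called higher, 6 to 8 called lower, 1204 to 1377 listed genes called higher and 907 to 975 called lower, and 5 to 8 and 9 to 11 genes of the wider list. The replicate numbers occur in both groups but mark different animals, and livers of the same number did not deviate together (r = 0.0574, 0.00597 and 0.0307). With the replicate block, 21 members were called higher and 6 lower, and 1337 and 963 listed genes, and it changed no call of a member described in each liver. Depth limits the 12 members with under 10 reads in every IR liver, whereas 22 members, with all 9 lower ones among them, had at least 20 reads in every liver. All of the 12 were higher in 18KO livers, which is no result, since such genes could hardly pass the authors' limits otherwise.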
